A study of Caenorhabditis elegans with 2 samples.

Results

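TRA-1 occupied 522 sites on the X chromosome of *Caenorhabditis elegans* that lay away from tRNA genes. They were chosen from the authors' main peak list, made from both replicates, which held 2703 sites in all and 666 on X. A site was kept when its summit was more than 500 bp from every annotated tRNA gene, a rule that used position and no signal. The rule left out 144 X sites, of which 141 lay within 100 bp of a tRNA gene. The other 3 left out lay at 146 bp (signal 10.4), 171 bp (signal 6.0) and 291 bp (signal 171, nearest to the sex gene xol-1). The closest site kept was 936 bp away with a signal of 104. The 1886 autosomal sites chosen by the same rule served as the background.

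The series holds chromatin immunoprecipitation and sequencing of TRA-1 from 2 biological replicates of 1 group, with no other condition. All animals were of strain DZ840, in which a biotag::GFP::TEV::3xflag cassette was inserted by CRISPR into tra-1 on chromosome III (allele ez72). Whole L4 larvae of 48 hours, synchronised by starvation at the L1 stage after bleaching, were used, a mixture of all tissues, and the antibody was against GFP. The labels record the sex as not collected, so binding in hermaphrodites and males cannot be told apart, nor can binding in different tissues. The data are peak lists without read counts, so depth is unknown, and the signal of a peak is the authors' own value, which ranks peaks within 1 list only.

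TRA-1, a GLI-type zinc-finger protein, stands at the end of the pathway that sets somatic sex in the worm, where it promotes female development largely by repressing male genes. The X chromosome is the primary sex signal: hermaphrodites carry a pair of X chromosomes and males a single one, and the X dose is read through xol-1. In hermaphrodites a condensin-based dosage compensation complex is recruited to X at specific sites and lowers transcription along the chromosome. GCGCAGGG, called the X motif core below, is the centre of the DNA motif known from those recruitment sites.

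The first set of sequences shows the 6 strongest X sites whose summit window held an exact copy of the X motif core. Each spans the summit and 50 bp to either side, on the plus strand of ce11 (RefSeq WBcel235 sequence), with GCGCAGGG or its reverse complement CCCTGCGC in capitals.
nspc-17 upstream, chrX:14525847-14525947: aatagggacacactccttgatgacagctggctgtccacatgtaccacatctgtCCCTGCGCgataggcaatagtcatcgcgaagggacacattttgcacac
mom-1 intron, chrX:6296544-6296644: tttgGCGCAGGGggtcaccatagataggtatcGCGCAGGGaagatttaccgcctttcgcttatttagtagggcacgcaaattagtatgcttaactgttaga
W02H3.3, chrX:11094177-11094277: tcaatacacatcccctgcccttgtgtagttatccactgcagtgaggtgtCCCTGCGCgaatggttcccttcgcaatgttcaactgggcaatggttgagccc
F20B6.9 strong site, chrX:4209228-4209328: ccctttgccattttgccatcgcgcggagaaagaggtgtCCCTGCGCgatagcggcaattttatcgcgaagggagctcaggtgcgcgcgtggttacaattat
gtr-1, chrX:806657-806757: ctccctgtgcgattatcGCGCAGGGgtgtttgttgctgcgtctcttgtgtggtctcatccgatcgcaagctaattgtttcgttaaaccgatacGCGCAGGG
ins-39 upstream, chrX:1345002-1345102: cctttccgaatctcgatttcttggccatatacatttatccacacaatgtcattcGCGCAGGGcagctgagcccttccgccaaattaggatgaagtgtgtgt

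The second set shows other sites named below, on the same strand and scale: the 3 strongest X sites, the X-dose sensor, the single site with an exact TRA-1 core, and the intestinal GATA factor. Capitals mark a GATA word (TGATAAG or CTTATCA) at jmjd-3.1 and elt-2, an E-box (CACGTG) at bcat-1, GAGACGC at epn-1, a TRA-1 core (TGGGTGGTC on either strand) with 1 mismatch at xol-1, and an exact one at hbl-1.
jmjd-3.1, chrX:8567305-8567405: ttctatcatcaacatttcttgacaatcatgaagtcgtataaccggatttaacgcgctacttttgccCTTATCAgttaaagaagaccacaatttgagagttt
bcat-1, chrX:12872455-12872555: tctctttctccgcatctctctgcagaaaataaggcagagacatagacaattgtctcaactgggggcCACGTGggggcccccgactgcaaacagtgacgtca
epn-1, chrX:14818957-14819057: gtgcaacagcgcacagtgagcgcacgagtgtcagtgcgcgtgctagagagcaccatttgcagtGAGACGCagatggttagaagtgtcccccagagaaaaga
xol-1, chrX:8041128-8041228: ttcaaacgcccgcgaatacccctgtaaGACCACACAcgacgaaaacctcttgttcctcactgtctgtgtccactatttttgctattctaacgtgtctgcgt
hbl-1, chrX:5821000-5821100: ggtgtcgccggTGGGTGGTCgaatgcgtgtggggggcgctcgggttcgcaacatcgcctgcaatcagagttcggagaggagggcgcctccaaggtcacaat
elt-2, chrX:10480709-10480809: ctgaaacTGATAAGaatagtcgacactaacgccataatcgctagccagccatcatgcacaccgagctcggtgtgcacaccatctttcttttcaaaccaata

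Exact copies of the X motif core were more frequent at X sites than at autosomal sites. Within 50 bp of the summit, 10 of 522 X sites held one (1.92%, 95% Wilson interval 1.04 to 3.49%), against 3 of 1886 autosomal sites (0.159%, interval 0.0541 to 0.467%). The difference of 1.76 percentage points passed a 2-sided Fisher's exact test (adjusted p = 0.000232, Benjamini-Hochberg over 21 shares). The word itself was also denser on X, with 81 copies or 4.57 per Mb against 2.82 per Mb on the autosomes. Among all tiles of the same length it occurred in 0.0388% on X and 0.0263% on the autosomes. Allowing 1 mismatch, which was the first search made, the share was 7.85% on X (41 sites) and 6.47% on the autosomes, and this difference of 1.39 points did not pass (exact adjusted p = 0.390, 95% interval −0.958 to 4.21). The exact match was a listed alternative to that search. The adjusted p-value covers the 21 shares of that setting and not the choice among settings.

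The excess of the exact word was also present in each replicate's own list. In replicate 1 it lay at 9 of 353 X sites (2.55%) against 1 of 1136 autosomal sites (0.0880%), with an adjusted p of 0.000115 by Fisher's exact test. In replicate 2 it lay at 11 of 248 X sites (4.44%) against 4 of 891 (0.449%), with an adjusted p of 0.000508 by the same test. Sites within 1 list are not independent samples, and a pair of the 10 sites lie close together upstream of F20B6.9, so these p-values cover counting error only.

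The 10 sites with the exact word were among the stronger X sites as a description. Their signal had a lowest value of 74.99, a median of 194 and a highest of 365, against a median of 109 for the other X sites. The peak signal ran from 35.8 to 231 in replicate 1 (median 112, against 60.8 over all X sites) and from 33.5 to 156 in replicate 2 (median 97.5, against 49.1). Of the 10, 4 were among the 20 strongest X sites and 5 among the strongest 52, and 7 were in both replicates' own lists. The spread was wide, and the weakest 3 fell below the median of the other X sites.

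The strongest lay 716 bp upstream of nspc-17, which encodes a small secreted nematode-specific peptide, with a signal of 365, and with 231 in replicate 1 and 126 in replicate 2. Next came an intron of mom-1, the worm Porcupine, which is needed for Wnt secretion (signal 346, replicates 180 and 156), whose window held 2 copies. A site outside genes, nearest to W02H3.3, had a signal of 338 (replicates 197 and 117), with the word on the summit itself. Upstream of F20B6.9 a strong site (signal 309, replicates 194 and 109) and a weak one (signal 74.99, replicates 35.8 and 44.2) each held 1 copy. The site nearest to gtr-1 held 2 copies and had a signal of 218 (replicates 125 and 96.9). Its window also held the TRA-1 core with 1 mismatch and a GAGACGC word. The site 631 bp upstream of ins-39, an insulin-like peptide gene, had a signal of 171 (replicates 98.7 and 78.1). At the other 3 sites, nearest to a gene without a name, to T24D8.6 and to svh-5, the signals were 167, 103 and 84.5. Introns held 2 of these 10, and 8 were outside genes. The 3 autosomal sites lay near Y54G2A.49 (signal 141), sma-2 (signal 118) and col-88 (signal 80.7).

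With 1 mismatch allowed, the X motif core lay at 13 of the 52 strongest X sites (25%), against 16 of the 188 strongest autosomal sites (8.51%). The 13 include 5 of the sites with the exact word described above. Among the weaker X sites, those below the X median, it lay at 12 of 261 sites, and among the weaker autosomal sites at 43 of 943. These shares are a description of ranked sites with no test. Whether any of the 41 sites is a recruitment site of the dosage compensation complex was not tested.

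**Figure D1:**
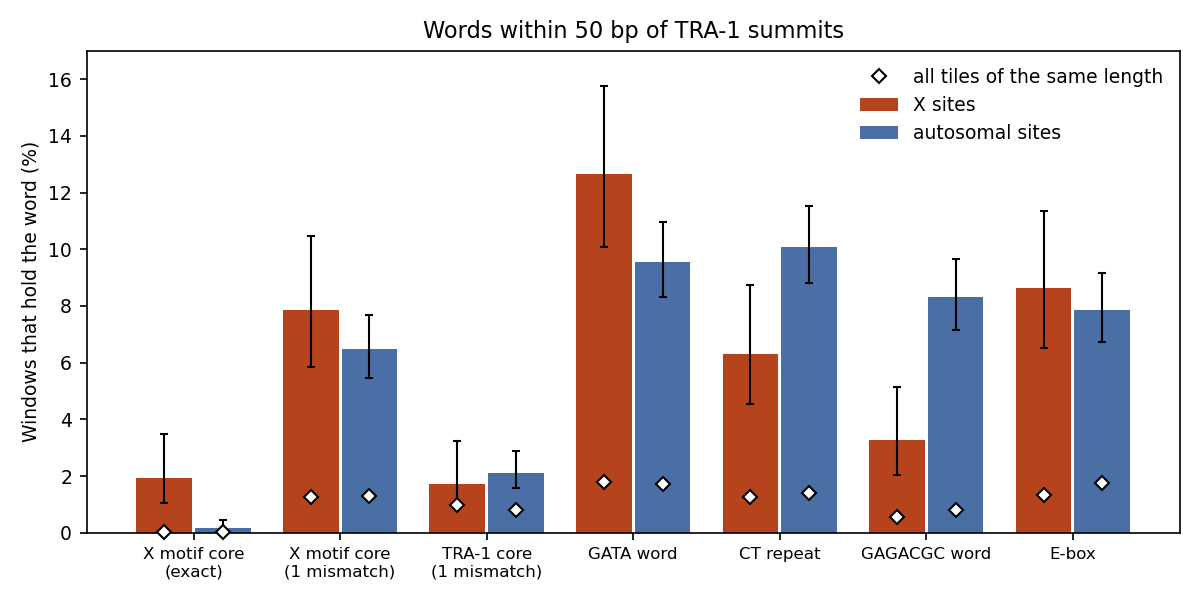
Share of summit windows (50 bp to each side) that hold each word (y axis, %) for X sites (n = 522, red) and autosomal sites (n = 1886, blue). Bars are shares, lines are 95% Wilson intervals and diamonds are the share of all tiles of that length of the same chromosomes. The exact X motif core is at 1.92% against 0.159%, GAGACGC at 3.26% against 8.32%, and every bar is above its diamond.

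GAGACGC lay at 17 X sites (3.26%) against 8.32% of autosomal sites, a difference of −5.07 points (Fisher's exact test, adjusted p = 0.000348). The word is rarer on X to begin with, in 0.542% of tiles against 0.802%. It lay at 5.95% of X sites in replicate 1's list and 5.24% in replicate 2's, where the difference no longer passed (exact adjusted p = 0.315 and 0.0865). The strongest X site that held it was upstream of epn-1 (signal 421). The CT repeat CTCTCTC lay at 33 X sites (6.32%) against 10.1% (difference −3.75 points, exact adjusted p = 0.0283), with the strongest at nfki-1 (signal 212). The autosomes ranged from 7.73% (V), near the X share, to 13.8% (I). In replicate 2's list the difference did not pass (exact adjusted p = 0.0985). Windows at X sites were slightly poorer in G and C, with a median of 43.6% against 45.5%, and windows with GAGACGC had a median of 53.5%. The part of base composition in these differences was not tested.

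GATA words, the kind of sequence bound by the GATA factors of the worm intestine, lay at 66 X sites (12.6%), the most of any word searched. The autosomal share was 9.54%, and the difference of 3.1 points did not pass (exact adjusted p = 0.102, 95% interval 0.159 to 6.47). In the lists of replicate 1 and replicate 2 alone it was −1.62 and −0.802 points. Tiles of that length held it in 1.77% on X and 1.71% on the autosomes. E-boxes, bound by basic helix-loop-helix factors such as the worm Mad and Max proteins, lay at 45 X sites (8.62%) against 7.85% (exact adjusted p = 0.646). At least 1 of the 6 words was found at 186 X sites (35.6%), and 336 held none. Words were searched on both strands, and none of the words contains another. A match says only that the letters are there.

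The sequence to which TRA-1 itself is known to bind was rare. TGGGTGGTC with at most 1 mismatch lay at 9 X sites (1.72%), against 2.12% of autosomal sites (exact adjusted p = 0.762) and 0.991% of X tiles. The single exact copy lay 1092 bp upstream of hbl-1, a zinc-finger gene that times larval stages, with a signal of 119, and with 57.0 in replicate 1 and 55.8 in replicate 2. Of the other 8, the strongest after gtr-1 was upstream of F52D2.7 (signal 199). The xol-1 site, 135 bp upstream, had a signal of 142, with 85.1 in replicate 1 and 53.7 in replicate 2. The rest lay at an abts-4 intron (signal 184), sms-2 (136), a second site 1930 bp upstream of elt-2 (129), scd-1 (95.9) and ztf-13 (77.5). Of the 9 sites, 5 were in both replicates' own lists.

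A larger share of X sites than of autosomal sites lay outside genes and far from gene starts. Outside protein-coding genes lay 351 of 522 X sites (67.2%, interval 63.1 to 71.1%) against 59.9% of autosomal sites (Fisher's exact test, adjusted p = 0.00959). X also has more such sequence: 44.3% of its bases lay outside genes, against 36.0% of autosomal bases, so sites were over-represented there by a factor of 1.52 on X and 1.66 on the autosomes. More than 2000 bp from every transcript start lay 163 X sites (31.2%) against 24.4% (exact adjusted p = 0.00959), beside 40.7% and 33.8% of bases. In the single-replicate lists neither difference passed: outside genes the exact adjusted p was 0.383 in replicate 1 and 0.146 in replicate 2, and for distance it was 0.0714 and 0.0529.

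Introns held 120 X sites (23.0%, against 27.4%, exact adjusted p = 0.102) and coding exons 34 (6.51%, against 7.48%, exact adjusted p = 0.624). There were 11 sites in 5' UTRs (2.11%, against 3.55%, exact adjusted p = 0.199) and 6 in 3' UTRs (1.15%, against 1.64%, exact adjusted p = 0.638). Promoters were defined as the 1000 bp before and the 200 bp after a transcript start. They held 225 X sites (43.1%) against 46.7% (exact adjusted p = 0.226, 95% interval of the difference −8.31 to 1.28), and make up 21.9% of X bases and 27.1% of autosomal bases. The median distance to the nearest start was 1005 bp on X and 826 bp on the autosomes. Signal differed among the classes as a description: the median was 114 outside genes, 106 in introns and 87.7 in coding exons, and 41.0%, 33.3% and 23.5% of those sites were in both replicates' lists.

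**Figure D2:**
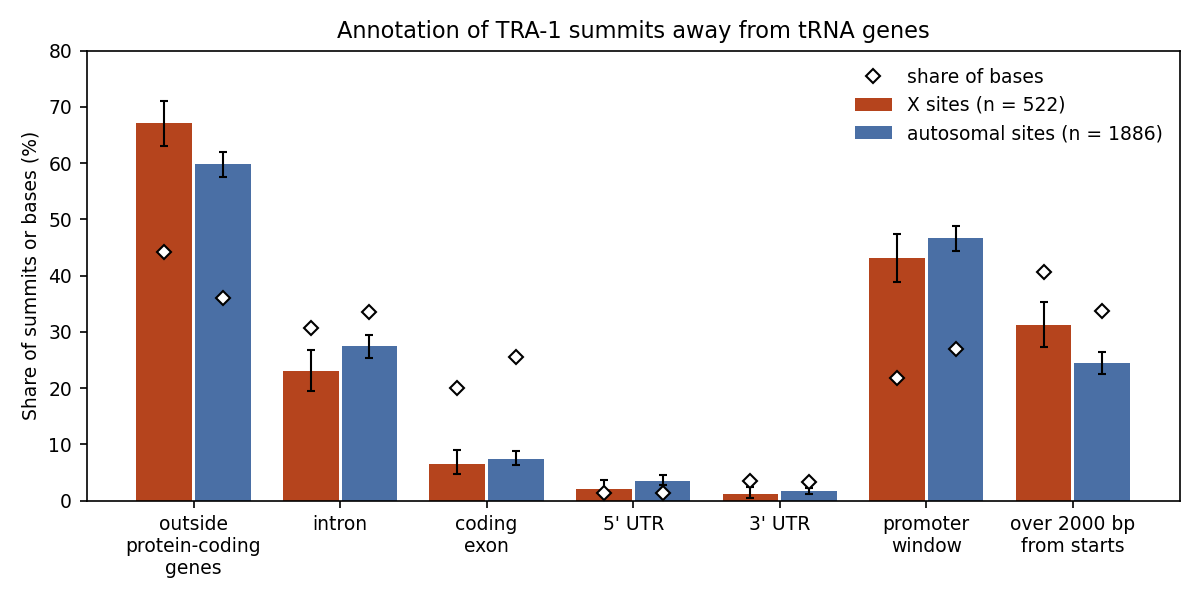
Share of TRA-1 summits in each annotation class (y axis, %) for X (red, n = 522) and the autosomes (blue, n = 1886), with 95% Wilson intervals as lines and the share of bases as diamonds. The last 2 pairs overlap the first 5. Summits outside genes are at 67.2% on X and 59.9% on the autosomes, and coding exons are far below their share of bases on both.

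On X there were 29.5 sites per Mb, against 22.8 on the autosomes together and 28.0 on chromosome II, the densest autosome. The order held in both single-replicate lists, at 19.9 against 13.8 per Mb in replicate 1 and 14.0 against 10.8 in replicate 2. In replicate 2 chromosome III, at 13.9 per Mb, lay next to X. X is gene-poor, with 154 protein-coding genes per Mb against 209, so per 100 genes the sites numbered 19.1 on X and 10.9 on the autosomes. A gene counted as bound if any summit fell within it or within the 2000 bp before its start. On X 354 of 2731 genes were bound, so that the background for every X gene list below is 13% of genes. On the autosomes 1661 of 17242, or 9.63%, were bound. The difference of 3.33 points passed Fisher's exact test (adjusted p = 4.04e-06, interval 2.04 to 4.71). It was 5.66 points when each site was given only to the nearest start and 1.74 with promoters only, and passed in both. In replicate 2's list it was 1.26 points and did not pass (exact adjusted p = 0.0529). Chromosome III had as high a share as X, at 13.2%. X genes were also longer, with a median of 2548 bp against 1964 bp, and longer genes offer more room for a summit. That part was not tested.

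**Figure D3:**
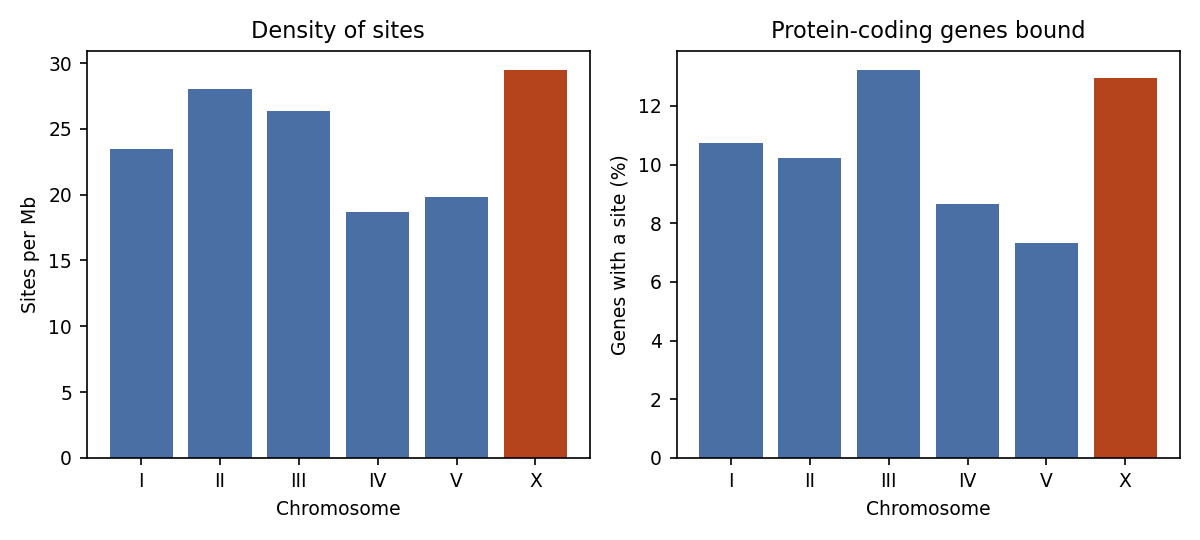
Density of TRA-1 sites away from tRNA genes (left, sites per Mb) and share of protein-coding genes with a site (right, %) on each chromosome, X in red. X has the highest density (29.5 per Mb), and in the share of genes chromosome III (13.2%) is next to X (13.0%).

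Along X the sites ran from end to end. Divided into 3 parts of equal length, X held 28.4% of its sites on the left, 34.3% in the middle and 37.4% on the right, beside 31.9%, 35.7% and 32.4% of its genes. On the autosomes the middle part held from 35.8% (III) to 49.8% (II). Bins of 1 Mb held from 10 sites, in the first, to 45, in the seventh. When X was cut into 10 stretches of equal length, the share of sites was lowest in the first and the sixth (6.13% and 6.90%) and highest in the eighth (13.0%). The median gap between neighbouring summits was 17024 bp and the longest 272 kb, between 8824599 and 9097044, and 52 of 521 gaps were under 1000 bp. These positions are a description of 1 list.

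**Figure D4:**
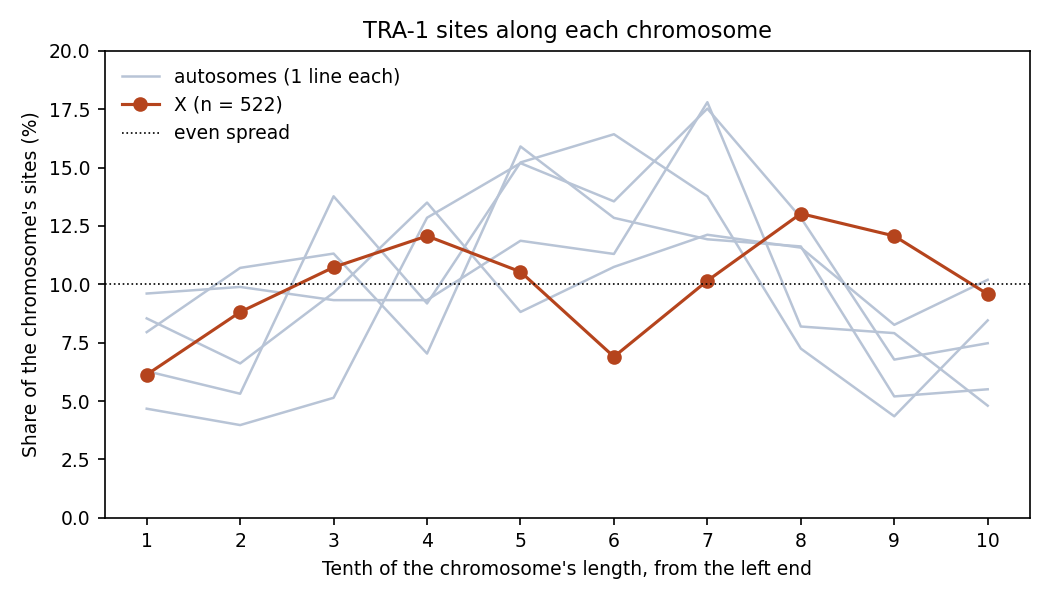
Share of each chromosome's sites (y axis, %) in each of 10 stretches of equal length (x axis) for X (red points) and each autosome (pale lines), with an even spread as a dotted line. X ranges from 6.13% in the first stretch to 13.0% in the eighth, without the high values near the centre, up to 17.8%, seen on some autosomes.

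The signal of X sites ran from 3.19 to 701 with a median of 109, against a median of 103 on the autosomes. Above the autosomal median lay 55.4% of X sites (Fisher's exact test, adjusted p = 0.100). In both replicates' own lists lay 194 X sites (37.2%) against 32.6% (exact adjusted p = 0.110), while 103 were only in replicate 1's list, 43 only in replicate 2's and 182 in neither. A peak in both replicates' ranked lists was found for 511 X sites. The Spearman rank correlation of the replicates across these sites was 0.566, a description across sites that were selected for agreement of the replicates. Signals below 50 belonged to 25 X sites, of which 22 overlapped a stronger member, and with all overlapping sites merged the 522 sites make up 497 separate regions covering 149 kb.

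**Figure D5:**
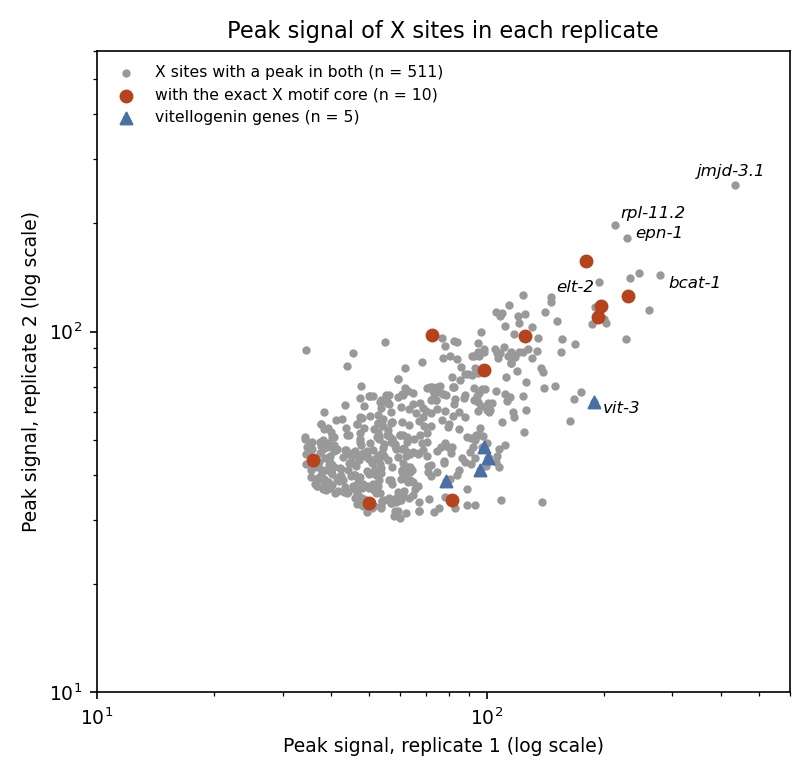
Peak signal in replicate 1 (x axis) and replicate 2 (y axis), both on log scales, for the 511 X sites with a peak in both ranked lists. Each axis ranks peaks within 1 list, so the 2 scales are not compared. Red points are the 10 sites with the exact X motif core and triangles are the 5 vitellogenin genes. The jmjd-3.1 site is highest on both axes (433 and 255).

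The strongest X site lay 3692 bp upstream of jmjd-3.1, which encodes a histone H3 lysine 27 demethylase. Its signal was 701, with 433 in replicate 1 and 255 in replicate 2, and a GATA word lay in its window. The second, 4975 bp upstream of bcat-1, a branched-chain aminotransferase gene, had a signal of 450 (replicates 280 and 144) and an E-box. The third lay 493 bp upstream of epn-1, the endocytic adaptor epsin (signal 421, replicates 229 and 182). Next came a site 390 bp upstream of rpl-11.2, a ribosomal protein of the large subunit (signal 411, replicates 214 and 197). All 4 were in both replicates' own lists.

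The other strong sites lay near genes of varied function. The site 285 bp upstream of puf-9, a Pumilio-family RNA-binding protein, had a signal of 390. The site 49 bp upstream of hsp-3, an endoplasmic reticulum chaperone of the BiP type, had a signal of 343 (replicates 194 and 137). A site upstream of nipi-3, a Tribbles-related pseudokinase of the innate immune response, was shared with rab-14, a small GTPase (signal 292). A site nearest to fkh-9, a forkhead factor, had a signal of 279 and was assigned to no gene. The remaining sites, besides the 4 with the exact X motif core, lay at or nearest to M163.1, serp-1.1, ZK899.6, C29F7.3, Y41G9A.17, K08H2.10, abhd-3.2 and fbxb-58. Of the 20, with signals from 274 to 701, 18 lay outside genes and 2 in introns, 6 were assigned to no gene, and all 20 were in both replicates' lists.

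Among X genes, 285 had 1 site, 53 had 2 and 16 had 3 or more. The 16 were 4.52% of the bound X genes, beside 4.39% of the bound autosomal genes (73 of 1661). H18N23.2 had 5 sites (signals 75.9 to 152), ZK470.2 had 5 (70.6 to 221), and lin-14, a nuclear factor that specifies early larval fates, had 5 (81.3 to 118). Genes with 4 sites were sma-9, the worm Schnurri that acts in BMP signalling (24.7 to 201), aak-2, a catalytic subunit of the energy sensor AMPK (3.59 to 135), abts-4 and unk-1. Merged where they overlap, the sites of sma-9 make up 3 separate regions, and those of aak-2, ivns-1, ceh-60, sur-5 and cpr-6 make up 2 each. Genes with 3 sites were puf-9, ivns-1, ceh-60, ets-4, nhr-48, scd-1, sur-5, kin-20 and cpr-6. They include an ETS factor (ets-4, strongest 165) and a casein kinase (kin-20, strongest 113). A summit may count for more than 1 gene: 59 sites were assigned to 2 genes, 2 to 3, and 136 to none.

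Of 23 nuclear hormone receptor genes on X, which encode ligand-regulated or orphan transcription factors, 9 were bound (39.1%, beside the 13.0% of all X genes), against 19 of 246 on the autosomes (7.72%, beside 9.63%). This list and those that follow are described by their counts alone. The strongest was nhr-35, 380 bp upstream (signal 217, replicates 121 and 88.0). It was followed by nhr-3 in an intron (signal 204, replicates 141 and 69.6), nhr-1 (signal 177, replicates 93.3 and 79.4) and nhr-40 (signal 167, replicates 96.8 and 62.1). The others were nhr-48 with 3 sites (strongest 161), nhr-14 (134), nhr-27 (126), nhr-32 (116) and nhr-173 (87.7). At least 1 site was in replicate 1's list for 8 of the 9 and in replicate 2's for 6. Most autosomal members, 167, lie on chromosome V. The bound X members were somewhat longer than the rest, with a median of 4856 bp against 4039 bp. The longest stretch was that of nhr-27, at 102756 bp, with both of its sites in introns.

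All 5 vitellogenin genes on X, which encode yolk proteins made in the hermaphrodite intestine, had 1 site each, from 82 to 173 bp upstream. The 1 autosomal vitellogenin gene was also bound. On X the signals ran from 120 at vit-1 to 250 at vit-3, with 78.7 to 189 in replicate 1 and 38.6 to 63.8 in replicate 2. The sites of vit-1 and vit-4 were not in replicate 2's own list. A GATA word lay in the windows of vit-1, vit-2 and vit-4 but not of vit-3 and vit-5. These genes are paralogs, and how reads map among them was not tested. Of 4 GATA factor genes, elt-2, which drives intestinal development, had a site 481 bp upstream with a signal of 262 (replicates 146 and 125), and elt-4 had one of 23.2 in its coding exon, with no peak in replicate 2's ranked list. The sites closest to elt-3 and med-1 lay 4519 and 5026 bp away.

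All 3 protein-coding X genes of the heterochronic list, which set the timing of larval cell fates, were bound. These genes are long: daf-12 spans 30968 bp, lin-14 20312 bp and hbl-1 5614 bp, beside a median of 2548 bp for X genes. The part of length in this count was not tested. MicroRNA genes such as let-7 were not counted in that list. For daf-12, a nuclear receptor, an intron site had a signal of 186 (replicates 98.3 and 87.5). For hbl-1 the strongest was the site with the exact TRA-1 core, and for lin-14 an intron site of 118 (replicates 47.7 and 70.5). Of the sites of lin-14, 0 were in replicate 1's own list and 2 in replicate 2's, while for hbl-1 the numbers were 1 and 0, so neither single-replicate list holds all 3 genes. Of 6 X-linked genes for sex and dosage compensation, xol-1 was bound, while sdc-2 and sdc-1, which start dosage compensation, had their closest sites 7128 and 8246 bp away. For sex-1, ceh-39 and fox-1, X-dose signal elements, the distance was 11097, 16011 and 22786 bp.

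Of 22 homeobox genes 2 were bound (9.09%): ceh-60 (signal 170) and ceh-37 (88.9). Of 34 neuropeptide and insulin-like genes 2 were bound (5.88%): ins-39 and flp-18 (89.9). Of 34 genes with names of the collagen kind 3 were bound (8.82%), the strongest being dpy-23 (169), which encodes a clathrin adaptor subunit and no collagen, and then col-185 (86.6) and col-178 (83.1). None of 26 genes named acr-, lgc- or lev- had a site. That list was drawn up by name for acetylcholine receptors, and not every member need encode one. None of 6 innexin genes, which encode gap junction proteins, had a site. Bound were 1 of 3 heat shock genes (hsp-3), 1 of 2 ribosomal protein genes (rpl-11.2) and none of 3 histone demethylase genes named jmjd-. The site closest to jmjd-3.1 lay 2435 bp upstream (signal 147). The strongest X site lay farther upstream, and both are outside the assigned window.

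Noncoding genes lay within 100 bp of fewer X summits for 1 class. Small nucleolar RNA genes, which guide RNA modification, lay near 4 X sites (0.766%) against 3.61% of autosomal sites (Fisher's exact test, adjusted p = 0.00161). X carries few of them, 33 against 313, and 4 of the 33 had a site, against 67 of the 313. The autosomes differed among themselves: on chromosome III 4 of 54 had a site, a lower share than on X. On chromosome II it was 21 of 71. The strongest on X was D2021.6, near sdha-1 (signal 168, replicates 78.1 and 90.9). Small nuclear RNA genes lay near 1 X site (0.192%) against 0.954% of autosomal sites (exact adjusted p = 0.167). X carries only 3 of them, against 13 (III) to 41 (IV) on each autosome. No X site lay near any of the 74 annotated microRNA genes of X (upper Wilson limit 0.731%). The autosomal share was 0.371%, and the difference did not pass (exact adjusted p = 0.470). Within 200 bp, 2 X sites lay near one (0.383%), against 0.424% of autosomal sites. Long intergenic RNA genes lay near 4 X sites (0.766%, against 0.795%). Other noncoding RNA genes lay near 73 (14.0%, against 11.0%, exact adjusted p = 0.122).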

How the data were processed

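Peak lists of 2 replicates of 1 group were used, on ce11 per the labels. The authors deposited for each peak a signal, in no stated unit and relative to a control not analysed here, and a score, a whole number that was at least 830 in the main list. Per the file descriptions, alignments of both replicates, a control and a further bed file went into the thresholded lists. Which aligner and caller were used is not given in the sources used here. Values per replicate are those of the strongest overlapping peak in that replicate's ranked list.

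Summits (1-based) were compared with Ensembl release 115 genes. ce11 and WBcel235 share their sequence, and 0 peaks ran past a chromosome end. Shares of X and autosomal sites were compared with 2-sided Fisher's exact tests over 21 shares, adjusted by Benjamini-Hochberg, with 95% Wilson intervals and Newcombe intervals of differences. A result passed at an adjusted p under 0.05. The unit tested is the site or gene, not the sample, so p-values and intervals cover counting error only. The members and lists were chosen with earlier results of these data known. Named genes were those of the 20 strongest X sites, genes with 3 or more sites, and members of listed families. The alternatives were the second thresholded list, sites above the median signal, other tRNA distances, merged overlaps, each replicate alone, and other windows, distances and mismatches. The procedure was tested on simulated data. The tools were scipy 1.17.1, numpy 2.4.6, pandas 2.3.3 and matplotlib 3.10.9 under Python 3.11.15.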

Additional observations from a re-analysis of the deposited data

How the results depend on the processing

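Over the alternatives run, no difference that passed in the main list changed sign. Differences are X minus autosomes, in percentage points of sites or genes. The share outside genes no longer passed among sites above the median signal (4.06), with genes of all biotypes (4.70) or with either replicate left out (3.46 to 7.07). The distant share no longer passed with a shorter limit of 1000 bp (4.49), a longer one (2.64) or with either replicate left out (6.39 to 9.07). The share of bound genes was 1.26 without replicate 1, where it did not pass, and 2.86 without replicate 2. It was 5.66 by nearest start only, 1.74 with promoters only and 1.98 above the median signal, and passed in each. GAGACGC ran from −4.97 to −2.85 with a replicate left out and did not pass. The CT repeat did not pass above the median signal (−4.38), within 25 bp (−2.36) or without replicate 1, and ran from −5.51 to −5.00 with a replicate left out. Small nucleolar RNA genes did not pass at 0 bp (−0.359) and moved to −5.66 above the median signal and −5.70 to −5.07 with a replicate left out, where they passed. Some differences came to pass: coding exons in the second list (−3.44, but 1.65 above the median signal and 1.81 without replicate 2, neither of which passed), 5' UTRs above the median signal (−2.55) and without replicate 2 (−3.20, against −1.40 without replicate 1), promoters of 2000 bp upstream (−7.49), and the exact X motif core (1.76). The exact core was counted again in the second list, above the median signal, at both other tRNA distances, with overlaps merged and with each replicate left out, a choice made after seeing the data. It differed by 1.42 to 3.99 points and passed in each of these. Other window sizes were not run for it. Density on X was 35.2 per Mb in the second list, 15.5 above the median signal and 14.0 to 19.9 with a replicate left out. The cause of these changes was not tested, and fewer sites enter the single-replicate lists and the stronger part. Leaving out sites of signal under 50, also chosen after seeing the data, changed no call. No paired analysis was possible because there is 1 group. Depth is unknown, so whether a site missing from 1 replicate's list was absent or undetected cannot be said.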

Other observations

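Sites gathered near 2 genes for Mad and Max family proteins, basic helix-loop-helix factors that bind E-boxes. These clusters were chosen after their values were seen and carry no test. Nearest to the start of mdl-1, the worm Mad, 6 sites lay within 8.68 kb, with signals of 271, 268, 185, 184, 123 and 82.0, and 4 of the 6 held an E-box. Of all 6, 2 were assigned to mdl-1, and those of 185, 184 and 82.0 lay in introns of the neighbouring abts-4. The strongest had 156 in replicate 1 and 95.3 in replicate 2, and 6 of the 6 sites were in replicate 1's list and 5 in replicate 2's. Nearest to mxl-3, a Max-like factor, 7 sites lay within 10.5 kb, with signals from 5.16 to 180, and 2 held an E-box. The weakest of these shares its replicate peaks with a stronger site. E-boxes were not particular to these 2 clusters. They lay at 2 of 4 sites nearest to tatn-1 and at 2 of 5 nearest to each of ZK470.4 and H18N23.2. Of the 6 nearest to M163.1 and the 6 nearest to C30E1.4, 0 held one. Over all X sites the share was 8.62%. The densest 50 kb stretch of X held 12 sites, 7 of them nearest to mxl-3, and the next held 11, among them 6 nearest to M163.1 and 1 nearest to his-24, a linker histone gene.

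Clusters also lay away from protein-coding genes. Nearest to C30E1.4 lay 6 sites outside genes within 8.37 kb, with signals from 97.9 to 244, of which 5 were within 100 bp of the noncoding RNA gene C30E1.9. Nearest to W05H9.4 lay 5 within 4.16 kb, with signals from 84.5 to 204, of which 2 were within 100 bp of the noncoding RNA gene W05H9.3. Of all X sites 26.1% were assigned to no gene, against 17.7% on the autosomes, and the difference was not tested.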
